A study of Mus musculus with 6 samples.

Results

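The heterochromatin genes Cbx1, Cbx3, Cbx5, Suv39h1, Suv39h2, Ehmt1, Ehmt2, Setdb1, Trim28 and Mbd1 were read out by symbol from the RNA-seq counts of mouse embryonic brains. They were 10 of the 53801 genes in the table, and all 10 passed the filter on low counts, with between 764 and 65921 reads in each embryo. The RNA came from whole brains of C57BL/6 embryos at E16.5, 3 of them Bahd1-KO (genotype Bahd1-/-) and 3 Bahd1-WT (wild type), obtained from crosses of heterozygous parents. The deletion was carried in all tissues and not in a chosen brain cell type. Each library came from a separate embryo.

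Heterochromatin is the compact and mostly silent form of chromatin. In its constitutive form, histone H3 carries methyl groups on lysine 9 (H3K9), and proteins of the HP1 family bind this mark through their chromodomain and recruit further silencing factors. Suv39h1 and Suv39h2 trimethylate H3K9 at pericentromeric repeats. Ehmt1 (GLP) and Ehmt2 (G9a) form a heterodimer that mono- and dimethylates H3K9 in euchromatin, and Setdb1 is brought to retroelements by Trim28 (KAP1), the corepressor of KRAB zinc finger proteins. Mbd1 binds methylated CpG. BAHD1 is a scaffold protein that was described as a partner of HP1, of several of these enzymes and of MBD1, and the transcripts of this machinery are compared here between brains with and without it.

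No difference between the genotypes was detected for any of the 10 genes. The quasi-likelihood test of edgeR was used with Benjamini-Hochberg adjustment over all 24739 genes tested. At the threshold of 0.05, 0 of 10 passed, where 0.00404% of all genes passed it. With Bahd1-KO replicate 3 left out, 0 of 10 passed, where 4 of 23334 genes tested passed. Adjusted p-values (edgeR) ran from 0.696 to 0.947. At an unadjusted p under 0.05 the count was also 0 of 10, against 4.67% of all genes, and the genotypes overlapped for every one of the 10, where 6.71% of all genes showed no overlap. The fitted log2 difference, Bahd1-KO against Bahd1-WT, was below 0 for 8 of the 10 and above 0 for 2, against 46.2% of all genes below 0, with a median of -0.24 for the 10 genes and 0.06 for all genes. The 95% intervals of Cbx1, Cbx5, Setdb1, Suv39h1, Suv39h2 and Mbd1 lay within a 2-fold change in either direction. Those of the other 4, Cbx3, Trim28, Ehmt1 and Ehmt2, reached a level more than 2-fold lower, and 0 reached a level 2-fold higher.

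The targeted gene followed the labels. Bahd1 had 2, 10 and 6 reads in the 3 Bahd1-KO embryos, against 1971, 3102 and 3470 reads in the 3 Bahd1-WT embryos. It was the single gene past the adjusted threshold, with a log2 difference of -8.40 (SE 0.606, edgeR adjusted p = 0.0462). Sequencing depth was 61.7 to 78.9 in units of 1e6 counts in Bahd1-KO and 81.6 to 91.8 in Bahd1-WT embryos. Bahd1-KO replicate 3 stood apart from the other 5 libraries. Its trimmed mean of M-values (TMM) factor, the scaling applied to a library before comparison, was 0.684 and was above 1 in each of the others. Levels below are TMM-scaled counts per 1e6 counts (CPM), listed for replicates 1, 2 and 3 of each genotype in that order. Neuronal marker genes summed to 2495 CPM in this embryo against 8650 and 9525 in the other Bahd1-KO and 8191 to 10271 in the Bahd1-WT embryos, with 5 of 9 at their lowest and 1 at its highest in it, and radial glia markers to 850 CPM against 1215 to 1483 in the other 5 embryos, with 5 of 8 at their lowest and 2 at their highest. All 8 skeletal muscle markers, 5 of 5 lung epithelium markers and 5 of 5 connective tissue markers were at their highest in it, with sums of 134, 1083 and 2054 CPM. In the other 5 embryos these sums were 4.17 to 13.4, 0.198 to 11.1 and 282 to 398 CPM. The 11.1 CPM of lung markers was Bahd1-KO replicate 2, the Bahd1-WT embryos having 0.282 to 0.465, and no marker of these lists was at 0 in all 3 Bahd1-WT embryos. Dividing progenitor markers summed to 1319 CPM in it against 490 to 700, and microglia markers to 67.4 against 36.3 to 50.1. Blood markers, at 132 to 591 CPM, did not set it apart. In whole tissue, fewer cells of a type and less RNA per cell cannot be told apart. The log2 differences of the 10 genes, and the ratios between them, are therefore also given without Bahd1-KO replicate 3, in which 7 of the 10 genes had their lowest level.

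**Figure D1:**
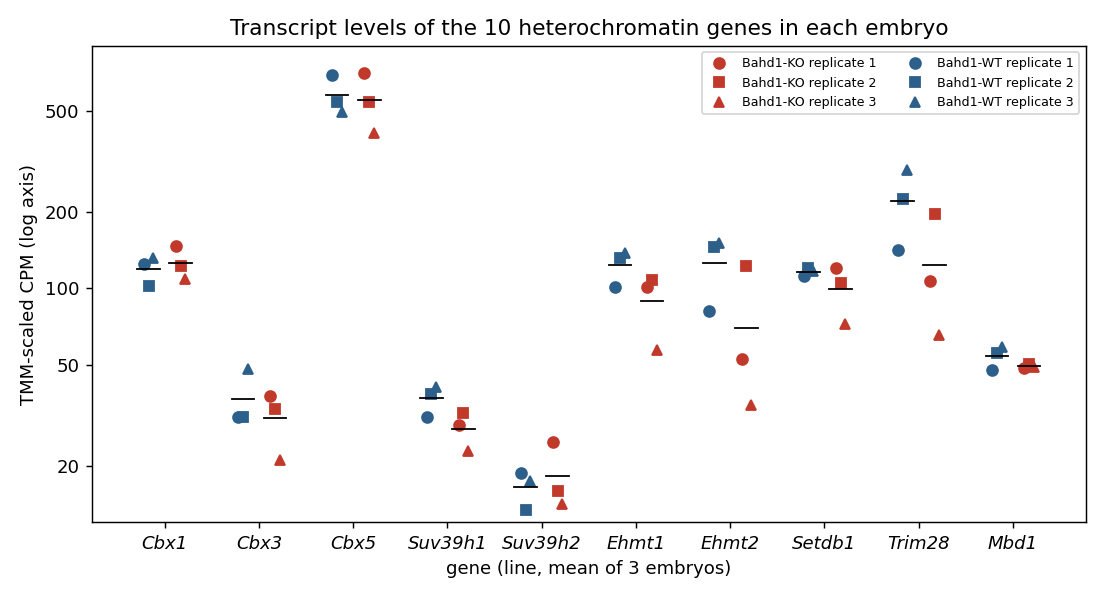
Levels of the 10 genes in TMM-scaled CPM on a log axis, Bahd1-WT in blue and Bahd1-KO in red, with 1 point per embryo and a line at the mean of each genotype (n = 3). The genotypes overlap for all 10 genes, and Bahd1-KO replicate 3 (red triangle) is the lowest of the 6 embryos for 7 of 10 genes.

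Part of the promoter of 3 genes is shown as the stretch before the transcription start, in lower case with the GC box hexamer GGGCGG, or its reverse complement CCGCCC, in capitals. Cbx5 is shown as the most abundant of the 10 transcripts per length over the 6 embryos. Ehmt2 and Trim28 are shown as the pair with the largest fitted differences and the most GC-rich transcripts. The sequences are from RefSeq on the GRCm38.p6 assembly, each read 5′ to 3′ on the strand of the gene, and hold no annotated exon.
Cbx5, minus strand, chr15:103239853-103240102: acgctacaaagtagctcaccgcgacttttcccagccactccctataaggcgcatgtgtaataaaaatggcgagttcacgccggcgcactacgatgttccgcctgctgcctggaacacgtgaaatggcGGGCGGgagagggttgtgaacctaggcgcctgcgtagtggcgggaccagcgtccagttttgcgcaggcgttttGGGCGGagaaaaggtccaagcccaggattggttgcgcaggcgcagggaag
Ehmt2, plus strand, chr17:34898266-34898468: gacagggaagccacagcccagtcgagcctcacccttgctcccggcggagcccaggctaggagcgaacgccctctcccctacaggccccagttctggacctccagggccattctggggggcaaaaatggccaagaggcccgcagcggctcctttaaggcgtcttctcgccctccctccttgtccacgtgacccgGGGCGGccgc
Trim28, plus strand, chr7:13023902-13024151: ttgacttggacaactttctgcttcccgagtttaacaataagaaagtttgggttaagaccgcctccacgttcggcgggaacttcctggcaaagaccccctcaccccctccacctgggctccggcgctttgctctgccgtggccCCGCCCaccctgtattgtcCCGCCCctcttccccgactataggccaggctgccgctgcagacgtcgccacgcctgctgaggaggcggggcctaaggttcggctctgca
The Cbx5 stretch holds 22 CpG and 2 GC boxes in 250 bases and has 59.2% GC. That of Ehmt2 holds 13 CpG and 1 GC box in 203 bases, at 67.98% GC, and is the whole gap between the start of C2, a complement gene on the opposite strand, and the first annotated base of Ehmt2. That of Trim28 holds 17 CpG and 2 GC boxes in 250 bases, at 62.0% GC. Over the 250 bases before the start in all 32851 RefSeq promoters of the table, the median was 6 CpG and 52.4% GC, and 32.7% held GGGCGG on either strand. A match of these letters is a description of the sequence and says nothing of binding in these brains.

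Per length, the HP1 genes were led by Cbx5. Cbx5 (HP1α, ENSMUSG00000009575, chr15:103191544-103239816, minus strand) had 704, 541 and 408 CPM in the Bahd1-KO embryos, against 689, 543 and 493 CPM in the Bahd1-WT embryos. The Bahd1-WT embryos lay between Bahd1-KO replicate 1, the highest, and Bahd1-KO replicate 3, the lowest. The log2 difference was -0.06 (SE 0.296, 95% interval -0.76 to 0.63, edgeR adjusted p = 0.947). The sign of this value turned to 0.10 without Bahd1-KO replicate 3 and to 0.04 with upper-quartile scaling.

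Cbx1 (HP1β, ENSMUSG00000018666, chr11:96789127-96808640, plus strand) had 146, 122 and 109 CPM in Bahd1-KO and 125, 102 and 132 CPM in Bahd1-WT embryos. The groups overlapped, and the log2 difference was 0.08 (SE 0.234, 95% interval -0.47 to 0.63, edgeR adjusted p = 0.915), 0.15 without Bahd1-KO replicate 3, -0.08 when libraries were scaled by total counts and -0.02 with the correction for GC content described below. Its levels spread by 1.43-fold over the 6 embryos. Cbx3 (HP1γ, ENSMUSG00000029836, chr6:51470360-51483704, plus strand) had 37.7, 33.5 and 21.2 CPM in Bahd1-KO and 31.1, 31.1 and 48.0 CPM in Bahd1-WT embryos. The extremes were Bahd1-KO replicate 3 and Bahd1-WT replicate 3, and the other 4 embryos lay between 31.1 and 37.7 CPM. The log2 difference of -0.25 (SE 0.321, edgeR adjusted p = 0.790) shrank to -0.06 (SE 0.258) without Bahd1-KO replicate 3. Of the 65-base stretches of the longest Cbx3 transcript, 3.49% also occur in 9 other genes, most of them processed pseudogenes of Cbx3. Only exact matches to annotated transcripts were searched, so its count is uncertain to at least that extent.

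Per length, in reads per kilobase of annotated exon and per 1e6 reads (RPKM), Cbx5 made up 63.5 ± 2.503% (SD, n = 3) of the HP1 transcripts in Bahd1-KO and 64.99 ± 5.69% in Bahd1-WT embryos. Cbx1 made up 31.2 ± 2.86% and 28.7 ± 3.73%, and Cbx3 5.33 ± 0.591% and 6.34 ± 1.99%. The order Cbx5, Cbx1, Cbx3 was the same in all 6 embryos. With the longest transcript in place of all exons the shares were nearer to each other, 49.2% and 50.9% for Cbx5 and 42.5% and 39.2% for Cbx1 in Bahd1-KO and Bahd1-WT. Within embryos, the ratio of Cbx3 to Cbx1 reads was 0.257, 0.274 and 0.194 in the Bahd1-KO embryos against 0.249, 0.304 and 0.364 in the Bahd1-WT embryos, a log2 difference of -0.34 that an exact permutation test did not set apart from 0 (two-sided p = 0.3). It was -0.19 without Bahd1-KO replicate 3 and -0.20 without Bahd1-WT replicate 3. That of Cbx5 to Cbx1 was 4.81, 4.42 and 3.73 against 5.53, 5.32 and 3.74, a log2 difference of -0.16 (exact permutation p = 0.5). This value depended on single embryos, at -0.055 without Bahd1-KO replicate 3, -0.054 without Bahd1-WT replicate 1, -0.081 without Bahd1-WT replicate 2, -0.24 without Bahd1-KO replicate 1 and -0.34 without Bahd1-WT replicate 3. With 3 embryos against 3 this test cannot go below 0.1, and the adjusted p over the 5 ratios tested was 0.5 for each.

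Cbx3 and Cbx5 each share a head-to-head start region with a gene of an abundant splicing protein, an arrangement known for keeping chromatin open in many tissues. Hnrnpa2b1 starts 466 bases upstream of Cbx3 on the opposite strand. It had 1504 ± 154 CPM (SD, n = 3) in Bahd1-KO and 1268 ± 230 in Bahd1-WT embryos, with a log2 difference of 0.25 (SE 0.267, edgeR adjusted p = 0.759). Hnrnpa1 starts 616 bases upstream of Cbx5 and had 413 ± 117 and 536 ± 100 CPM, with a log2 difference of -0.38 (SE 0.309, edgeR adjusted p = 0.703). Without Bahd1-KO replicate 3 these values were 0.24 for Hnrnpa2b1 and -0.17 for Hnrnpa1. C2, next to Ehmt2, was near silent at 0.346 and 0.398 CPM. Slc27a5, a liver bile acid enzyme gene, starts 922 bases upstream of the annotated GENCODE start of Trim28 and was also near silent, with 0.290, 0.261 and 0.0927 CPM in Bahd1-KO and 0.313, 0.363 and 0.396 CPM in Bahd1-WT embryos. Its genotypes did not overlap, but with 5 to 40 reads the log2 difference of -0.72, or -0.39 without Bahd1-KO replicate 3, did not pass the test (edgeR adjusted p = 0.697 with all embryos). The RefSeq start of Trim28, printed above, lies 25038 bases downstream of the GENCODE start.

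Suv39h1 and Suv39h2 were among the lowest of the 10 genes per length, with fitted differences of opposite sign. Suv39h1 (ENSMUSG00000039231, chrX:8061171-8074760, minus strand) had 28.9, 32.2 and 22.9 CPM in Bahd1-KO and 31.3, 38.4 and 41.0 CPM in Bahd1-WT embryos. Only Bahd1-KO replicate 2, above Bahd1-WT replicate 1, made the groups overlap. The log2 difference was -0.40 (SE 0.252, 95% interval -0.99 to 0.19, edgeR adjusted p = 0.696), and -0.28 (SE 0.222) without Bahd1-KO replicate 3. Suv39h2 (ENSMUSG00000026646, chr2:3455815-3475031, minus strand) had 24.8, 16.0 and 14.2 CPM in Bahd1-KO and 18.7, 13.4 and 17.5 CPM in Bahd1-WT embryos. Bahd1-KO replicate 1 was the highest and Bahd1-WT replicate 2 the lowest embryo, and the log2 difference was 0.15 (SE 0.317, edgeR adjusted p = 0.877), 0.29 without Bahd1-KO replicate 3 and -0.02 with the correction for GC content. The ratio of Suv39h2 to Suv39h1 reads was 0.859, 0.497 and 0.619 in the Bahd1-KO embryos against 0.598, 0.348 and 0.427 in the Bahd1-WT embryos. Its mean was higher in Bahd1-KO by 0.52 on the log2 scale, and the groups overlapped (exact permutation p = 0.2). The difference was 0.55 without Bahd1-KO replicate 3, 0.31 without Bahd1-KO replicate 1, 0.34 without Bahd1-WT replicate 2 and 0.24 after the correction for GC content. Both genes overlap genes on the other strand, Suv39h1 the antisense transcript Gm14820 over 14.6% of its exon bases and Suv39h2 the DNA repair gene Dclre1c over 8.10%, which strand-specific counting keeps apart.

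Ehmt2 and Trim28 had the largest fitted differences and the widest spread between embryos. Ehmt2 (ENSMUSG00000013787, chr17:34898469-34914052, plus strand) had 52.8, 123 and 34.7 CPM in Bahd1-KO and 81.5, 145 and 151 CPM in Bahd1-WT embryos. The highest and lowest embryo differed by 4.35-fold, and by 3.53-fold among the Bahd1-KO embryos alone. The log2 difference was -0.85 (SE 0.499, 95% interval -2.02 to 0.33, edgeR adjusted p = 0.696). Trim28 (ENSMUSG00000005566, chr7:12999114-13031035, plus strand) had 107, 197 and 65.7 CPM in Bahd1-KO and 141, 226 and 293 CPM in Bahd1-WT embryos, a spread of 4.46-fold. Its log2 difference was -0.84 (SE 0.458, 95% interval -1.92 to 0.24, edgeR adjusted p = 0.696). For both genes the same 3 embryos were low, Bahd1-KO replicates 1 and 3 and Bahd1-WT replicate 1. Without Bahd1-KO replicate 3 the values were -0.52 (SE 0.409) for Ehmt2 and -0.54 (SE 0.370) for Trim28, and without Bahd1-KO replicate 2 they were -1.56 and -1.39.

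Ehmt1 and Setdb1, the partners of these proteins, had smaller fitted differences. Ehmt1 (ENSMUSG00000036893, chr2:24789928-24919614, minus strand) had 102, 108 and 57.4 CPM in Bahd1-KO and 101, 132 and 138 CPM in Bahd1-WT embryos, with a log2 difference of -0.47 (SE 0.306, 95% interval -1.19 to 0.24, edgeR adjusted p = 0.696). Bahd1-KO replicate 1 and Bahd1-WT replicate 1 were alike, and the lone low value was Bahd1-KO replicate 3. Without it the difference was -0.25 (SE 0.209). Setdb1 (ENSMUSG00000015697, chr3:95323525-95357202, minus strand) had 121, 105 and 72.4 CPM in Bahd1-KO and 112, 120 and 117 CPM in Bahd1-WT embryos. The 3 Bahd1-WT embryos were within 1.08-fold of each other, and 3.72% of the genes at a similar level were less variable among them. The log2 difference was -0.23 (SE 0.257, edgeR adjusted p = 0.765), and -0.06 (SE 0.180) without Bahd1-KO replicate 3. Of the 65-base stretches of its longest transcript, 5.33% also occur, on either strand, in 3 other genes, most of them in Gm4349. The other genes, Cers2 and Gm37500, overlap Setdb1 on the opposite strand, which strand-specific counting keeps apart.

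For neither pair was a shift in balance detected. The ratio of Ehmt2 to Ehmt1 reads was 0.520, 1.14 and 0.605 in the Bahd1-KO embryos against 0.807, 1.10 and 1.10 in the Bahd1-WT embryos, a log2 difference of -0.48 (exact permutation p = 0.4). It was -0.37 without Bahd1-KO replicate 3, -0.26 without Bahd1-KO replicate 1 and -0.82 without Bahd1-KO replicate 2. That of Trim28 to Setdb1 was 0.885, 1.88 and 0.908 against 1.26, 1.88 and 2.51, a log2 difference of -0.66 (exact permutation p = 0.2). It was -0.49 without Bahd1-KO replicate 3, -1.01 without Bahd1-KO replicate 2 and -0.42 without Bahd1-WT replicate 3. The groups overlapped in both.

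Mbd1 was the steadiest of the 10 over all 6 embryos. Mbd1 (ENSMUSG00000024561, chr18:74267605-74282732, plus strand) had 48.6, 50.4 and 48.99 CPM in Bahd1-KO and 47.8, 55.8 and 59.0 CPM in Bahd1-WT embryos. Bahd1-KO replicate 3 did not stand apart for this gene, and the 6 embryos lay within 1.24-fold. Among 4842 genes within 2-fold of its level, 3.51% varied less over the 6 embryos, and 27.1% over the Bahd1-WT embryos alone, among which Setdb1 was the steadiest. The log2 difference was -0.14 (SE 0.214, edgeR adjusted p = 0.833), the same to 2 decimals without Bahd1-KO replicate 3 and 0.02 with the correction for GC content. Cbx1 was the next steadiest, with 12.6% of genes at its level varying less, and Ehmt2 and Trim28 the least steady, with 87.9% and 84.1%.

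**Figure D2:**
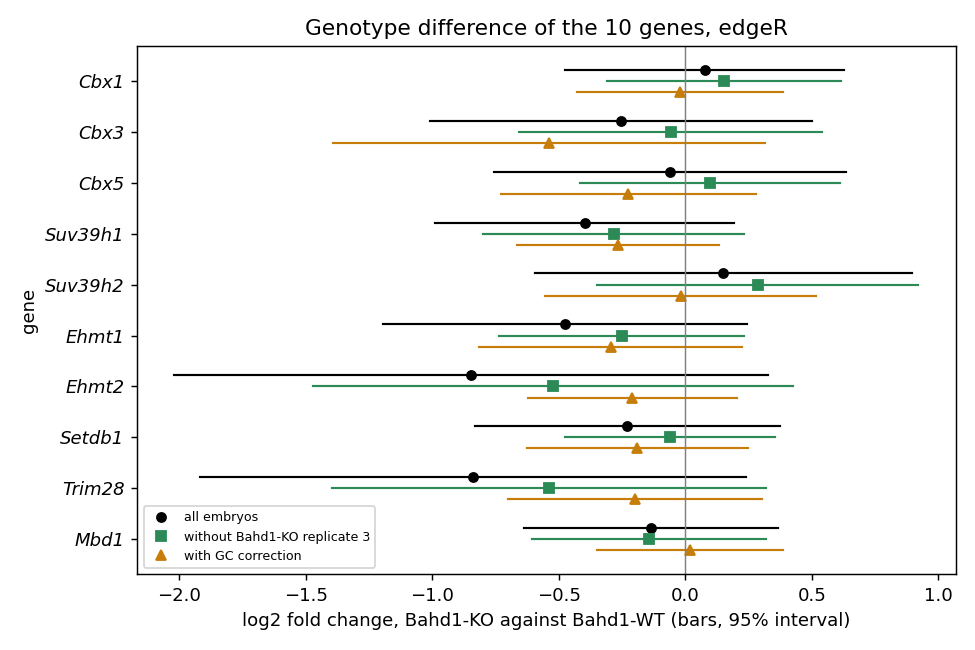
Log2 difference between Bahd1-KO and Bahd1-WT for the 10 genes from edgeR, with 95% intervals as bars, for all embryos (black circles), without Bahd1-KO replicate 3 (green squares) and with the correction for GC content (orange triangles). All 30 intervals include 0, and the values of Ehmt2 and Trim28 go from -0.85 and -0.84 to -0.21 and -0.20 with the correction.

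The spread of Ehmt2 and Trim28 went along with their base composition. The longest transcript of Ehmt2 has 60.8% GC and that of Trim28 59.6%, above 97.1% and 94.9% of the 13754 protein-coding genes with a mean of at least 1 CPM, whose median was 49.6%. In the class of genes with over 60% GC the median deviation from the mean of the 6 embryos, on the log2 scale, was -0.73, 0.52 and -0.91 for the Bahd1-KO embryos, against -0.22, 0.66 and 0.62 for the Bahd1-WT embryos. In the class of 55 to 60% GC, which holds Trim28, these values were -0.53, 0.29 and -0.57 against -0.18, 0.44 and 0.48. The 3 embryos in which Ehmt2 and Trim28 were low were thus the 3 in which both classes were low. In genes under 40% GC the sign was turned in all 6 embryos, with 0.35, -0.10 and 0.13 in the Bahd1-KO embryos against 0.21, -0.33 and -0.29 in the Bahd1-WT embryos. The median log2 difference between the genotypes ran from 0.26 in genes under 40% GC through 0.00 at 45 to 50% to -0.66 over 60%.

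Set against genes of like GC content, the 10 genes took another order. Ehmt2 was 0.19 below the median of its class, with 26.8% of the class lower still. Trim28 was 0.34 below the median of the class of 55 to 60% GC, which was -0.50, with 12.7% lower. Cbx3, the most GC-poor at 38.7%, was 0.51 below its class, with 3.98% lower, and Suv39h1 0.40 below, with 8.32% lower. Mbd1 was 0.10 above the median of its class. After each library was corrected for GC content by a lowess curve, Ehmt2 had 89.3, 86.2 and 66.1 CPM in Bahd1-KO and 94.2, 89.3 and 95.8 CPM in Bahd1-WT embryos, a spread of 1.45-fold in place of 4.35-fold. The curve was fitted to the deviations of these same libraries, so part of this narrowing was built in. It also takes out any genotype difference that follows GC content. With the correction the genotypes met at 89.32 CPM in Bahd1-KO replicate 1 and 89.33 CPM in Bahd1-WT replicate 2. On the corrected scale the share of all genes without overlap was not counted. The log2 difference of Ehmt2 was -0.21 (SE 0.172, edgeR adjusted p = 0.726). Trim28 had 173, 144 and 117 CPM in Bahd1-KO and 162, 145 and 191 CPM in Bahd1-WT embryos, with a log2 difference of -0.20 (SE 0.209, edgeR adjusted p = 0.760). Cbx3 then had the largest value, -0.54 (SE 0.355, edgeR adjusted p = 0.698), and the Ehmt2 to Ehmt1 ratio changed sign, to 0.10, while that of Trim28 to Setdb1 came to 0.00. Bahd1 itself, at 59.6% GC, went from 20.6, 35.2 and 34.4 CPM in the Bahd1-WT embryos to 23.7, 22.6 and 22.4 CPM. With the correction, 9 of the 10 log2 differences were below 0 and the median was -0.20, against a median of 0.12 for all genes. Without Bahd1-KO replicate 3, and uncorrected, 7 were below 0 and the median was -0.10, against -0.008 for all genes. The share of all genes below 0 was not counted in either fit. Whether GC content or the tissue content of Bahd1-KO replicate 3 sets any of these values was not tested.

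**Figure D3:**
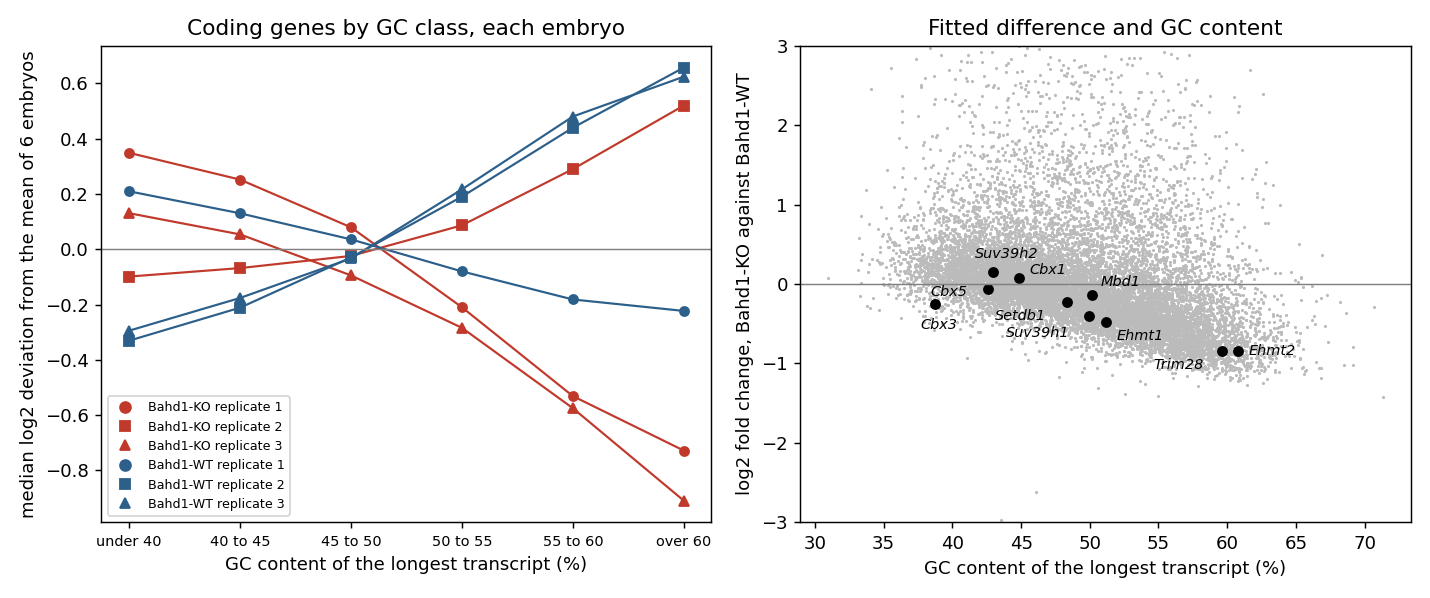
Left, median log2 deviation of each embryo from the mean of 6 embryos in 6 classes of GC content over 13754 protein-coding genes, Bahd1-WT in blue and Bahd1-KO in red. Right, the log2 difference between the genotypes against GC content, with the 10 genes as black points, 13500 genes in grey and 254 further genes beyond the axis limit of 3 in either direction. Bahd1-KO replicates 1 and 3 and, less steeply, Bahd1-WT replicate 1 go down with GC content, Bahd1-KO replicate 2 and Bahd1-WT replicates 2 and 3 go up, while Ehmt2 and Trim28 lie at the GC-rich end with the lowest values of the 10.

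Per length, the 10 genes spanned a 15.8-fold range of mean level. Cbx5 was the highest at 62.5 ± 12.7 RPKM (SD, n = 6 embryos), above 97.8% of 16976 protein-coding genes, followed by Trim28 at 41.2 ± 20.02, Cbx1 at 28.7 ± 3.71, Ehmt2 at 17.8 ± 8.91, Setdb1 at 15.7 ± 2.68, Ehmt1 at 13.1 ± 3.51, Mbd1 at 7.72 ± 0.682, Suv39h1 at 6.16 ± 1.24, Cbx3 at 5.63 ± 1.47 and Suv39h2 at 3.95 ± 0.937 RPKM. Even Suv39h2 was above 51.0% of protein-coding genes. Of the 9 pairs of neighbours in this order, 0 passed an exact sign-flip permutation test within embryos after adjustment over the 9. Setdb1 was above Ehmt1, Mbd1 above Suv39h1 and Cbx3 above Suv39h2 in 6 of 6 embryos. Each had p = 0.03125, the smallest that 6 embryos allow, and an adjusted p of 0.09375 in this exact test. Levels here are per exon union, and the pairs became neighbours through the ranking of these same embryos. Ehmt2 and Setdb1 were not ordered, with Ehmt2 higher in 3 of 6. With the longest transcript as the length, 6 of the 10 genes kept their rank by mean log2 RPKM over the 6 embryos. Cbx1 passed Trim28 and Cbx3 passed Suv39h1. Means of the Bahd1-WT embryos alone were ordered otherwise with this length. They were 67.8 RPKM for Trim28, 65.3 for Cbx5 and 50.3 for Cbx1, and 20.7 for Ehmt1 and 20.6 for Setdb1.

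**Figure D4:**
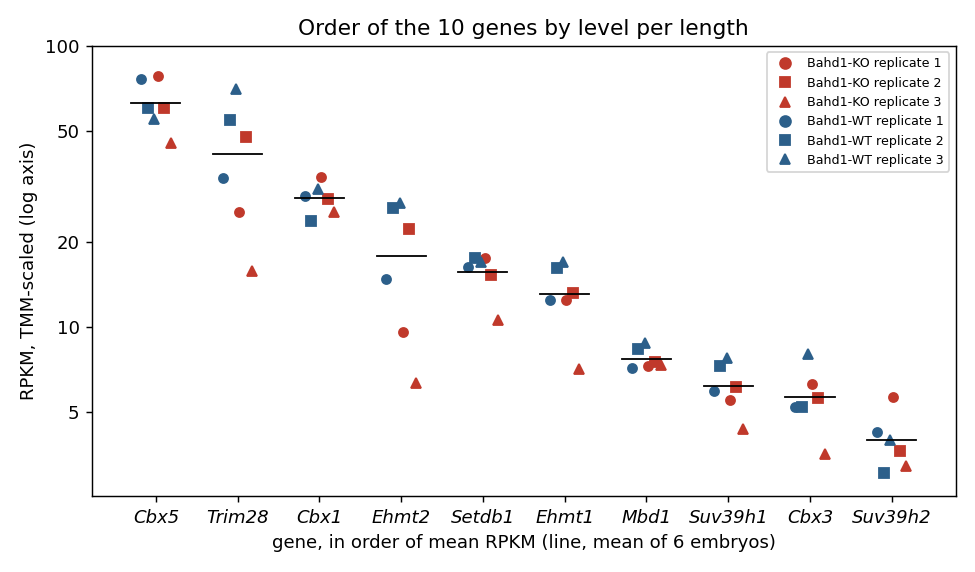
Levels of the 10 genes per length, in RPKM on a log axis, in descending order of the mean of 6 embryos (line), with 1 point per embryo, Bahd1-WT in blue and Bahd1-KO in red. Cbx5 is at the top at 62.5 RPKM and Suv39h2 at the bottom at 3.95, and the points of neighbouring genes overlap.

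Other genes of the H3K9 pathway were read from the same fit. Of these 46, 0 passed the adjusted threshold (edgeR), where 0.00404% of all genes passed it. Among 10 further H3K9 methyltransferases and cofactors, 5 had a log2 difference above 0 and 5 below, with a median of 0.11. Mecom, a PR-domain transcription factor gene, had 7.66, 6.11 and 89.2 CPM in Bahd1-KO and 7.31, 6.20 and 5.77 CPM in Bahd1-WT embryos. Its log2 difference of 2.42 (edgeR adjusted p = 0.696) rested on Bahd1-KO replicate 3 and was 0.08 without it. Atf7ip2, a homologue of the Setdb1 cofactor gene Atf7ip, had 22, 13 and 41 reads against 14, 8 and 4, with a log2 difference of 2.15 (edgeR adjusted p = 0.696), or 1.36 without Bahd1-KO replicate 3. Mecom and Atf7ip2 were the 2 genes of the 46 with an unadjusted p under 0.05, or 4.35% against 4.67% of all genes. In CPM the genotypes did not overlap for 3 of the 46, Atf7ip2, Prdm2 and Pogz, or 6.52% against 6.71% of all genes. Prdm2 and Pogz are named for this after their values were seen. Among 11 H3K9 demethylases, 5 were above 0 and 6 below, with a median of -0.17. Phf2, which demethylates H3K9me2, had a log2 difference of -0.58 that came to -0.02 with the GC correction and -0.43 without Bahd1-KO replicate 3, and Kdm7a one of 0.80, or 0.27 without Bahd1-KO replicate 3.

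Among 18 HP1 partners and factors of H3K9me3-dependent silencing, 7 were above 0 and 11 below, with a median of -0.10. Hells, a chromatin remodeller needed for DNA methylation at repeats, had 49.4, 30.9 and 73.3 CPM in Bahd1-KO and 35.6, 23.1 and 32.9 CPM in Bahd1-WT embryos (log2 difference 0.74, or 0.38 without Bahd1-KO replicate 3 and 0.48 with the GC correction). Daxx, the H3.3 chaperone that works with Atrx, had 18.5, 29.7 and 16.6 CPM against 23.4, 34.4 and 40.8 (log2 difference -0.61, or -0.45 without Bahd1-KO replicate 3 and -0.12 with the GC correction). Among 7 other methyl-CpG binding protein genes, 4 were above 0 and 3 below, with a median of 0.05. Mbd3, a subunit gene of the NuRD complex, had 11.7, 45.7 and 10.2 CPM in Bahd1-KO and 22.4, 57.7 and 74.1 CPM in Bahd1-WT embryos, the same 3 low embryos as for Ehmt2 and Trim28, and a log2 difference of -1.19 (-0.51 with the GC correction and -0.83 without Bahd1-KO replicate 3). Mbd2 had 90.6 CPM in Bahd1-KO replicate 3 and 26.7 to 31.0 CPM in the other 5 embryos, and its log2 difference of 0.81 came to 0.02 without that embryo and to 1.43 with the GC correction. Without Bahd1-KO replicate 3 the medians of the 4 lists, in the order given, were -0.052, -0.054, -0.046 and -0.018. That of all genes was -0.008. The adjusted p of Kdm7a, Phf2, Hells, Daxx, Mbd3 and Mbd2 was 0.696 each (edgeR).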

How the data were processed

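The authors deposited unnormalized counts of reads per gene for the brains of 3 Bahd1-KO and 3 Bahd1-WT embryos. Per the study's methods and processing notes, the authors sequenced stranded poly(A) libraries as 65-base single-end reads, trimmed them with cutadapt 1.11, aligned them to GRCm38 with STAR 2.5.0a (TopHat2 is also named) and counted reads by strand over Ensembl genes with featureCounts 1.4.6-p3. Every row of counts named a gene. Genes with a summed count of at least 10 were tested with edgeR 4.0.16 in R 4.3.3, with TMM factors, genotype as the single term, two-sided tests and Benjamini-Hochberg adjustment at 0.05. Standard errors (SE) were derived from the fitted log2 difference and the F statistic of that test. The 95% intervals used these and a t quantile, and both are approximations. RPKM used the union of exons of GENCODE M21. GC content was that of the longest transcript, and the GC correction was a lowess curve with a span of 0.3 for each library. Ratios within embryos and neighbours in the order of levels were compared by exact two-sided permutation tests. Alternatives covered filters, scaling, DESeq2 1.42.0, voom (limma 3.58.1), a replicate block, the GC correction and each embryo left out. Scripts were tested on simulated data. The 10 genes, the lists and the tests were chosen with earlier results of these data known. The text names the 10 genes, Bahd1, coding genes that start close by on the opposite strand, and the 2 genes with the smallest p in each pathway list. Promoters were from RefSeq and matched 9 of the 10 genes. No p-value reflects error beyond the spread between these embryos.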

Additional observations from a re-analysis of the deposited data

How the results depend on the processing

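The values of 22 results were recomputed in 373 comparisons, of which 341 were scored as unchanged. For log2 differences and ratios this meant the same sign at any size. The ratio of Trim28 to Setdb1 was so scored at -0.004 with the GC correction, against -0.66. Orders of levels with 8 of 10 ranks kept and repeated counts of 0 genes called were also scored as unchanged. The number of the 10 genes called was 0 in each of the 20 alternatives in which it was counted. Several of these, given below, called 0 genes over all genes, Bahd1 included. In those the count for the 10 genes could not differ from 0. Over all genes, the number called was 1 with edgeR, 8 with DESeq2, 6 with voom and quality weights, and 0 with ribosomal, mitochondrial and small RNA genes left out, where 1055 genes had an unadjusted edgeR p under 0.05. With the replicate number as a block, edgeR gave 0 calls (517 genes had an unadjusted p under 0.05), and it gave 0 with block and GC correction combined (373 genes). Without Bahd1-KO replicate 3 it was 11 with DESeq2, 16 with the replicate block and 6 with the GC correction. Leaving out each embryo in turn gave 0 to 4 genes, with 4 without Bahd1-KO replicate 3 and 0 without each of the other 5, so that the call of Bahd1 was also lost, where 154 to 4878 had an unadjusted edgeR p under 0.05. Deviations of same-numbered embryos correlated at 0.26, 0.34 and -0.12, and those of differently numbered Bahd1-KO and Bahd1-WT embryos at -0.50 to 0.38. These correlations do not settle whether the numbers mark pairs, and the main fit did not take them as pairs.

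Log2 differences near 0 changed sign. Cbx1 went from 0.08 to -0.080 with total counts, -0.021 with the GC correction and -0.014 with this correction plus the replicate block, and ranged from -0.043 to 0.15 with embryos left out. Cbx5 went from -0.06 to 0.038 with upper-quartile factors, 0.18 with voom and 0.10 with DESeq2 without Bahd1-KO replicate 3, and ranged from -0.28 to 0.10 with embryos left out. Suv39h2 went from 0.15 to -0.018 with the GC correction and -0.028 with the block added, and ranged from -0.13 to 0.29. Mbd1 went from -0.14 to 0.018 with the GC correction and 0.016 with the block added, and Cbx3 from -0.25 to 0.18 with the replicate block without Bahd1-KO replicate 3. The Ehmt2 to Ehmt1 ratio went from -0.48 to 0.10 with the GC correction, an alternative chosen for the ratios after seeing the data. Trim28, Setdb1, Suv39h1, Ehmt1 and Ehmt2 stayed below 0 in 20 of 20 alternatives. The causes were not tested. The order of levels kept 6 of 10 ranks with the longest transcript. The scaling moved the median log2 difference of all genes from 0.06 to 0.17 (upper quartile) or -0.11 (total counts). The 10 genes had at least 764 reads in each embryo, and with 3 embryos a genotype the intervals of 4 of them reached a 2-fold lower level.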
